A study of Mus musculus with 4 samples.

Results

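Slc18a2 and Srgn, the mRNAs of a transporter and of a proteoglycan of mast cell granules, were examined for the sites at which the RNA acetyltransferase NAT10 was crosslinked to them. Slc18a2 (ENSMUSG00000025094) and Srgn (ENSMUSG00000020077) were chosen by gene symbol, with the values of their peaks already known, so their peak counts and folds are given as a description and were not tested. They held 20 of the 4172 distinct peaks in the list, 14 on Slc18a2 and 6 on Srgn, and were 2 of its 1629 gene identifiers. All libraries came from 32D, a mouse bone marrow line that was wild type in genotype and grown in 10% serum with 10 ng/mL interleukin-3. The cells were crosslinked with ultraviolet light of 254 nm at 150 mJ. There were 2 libraries of RNA immunoprecipitated with an antibody to NAT10 (IP) and 2 input libraries made without antibody. Separate cultures behind the 2 libraries of a group are not stated in the labels, and 32D stands for 1 cell line only. The method, eCLIP, sequences the short RNA fragments that stay attached to the crosslinked protein, and the series was made to find mRNAs that NAT10 binds directly.

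Slc18a2 encodes the vesicular monoamine transporter, which loads histamine and serotonin into storage granules in exchange for protons. The vacuolar proton pump supplies those protons. Srgn encodes serglycin, whose long sulfated sugar chains hold proteases and amines inside the granules of mast cells and other blood cells. NAT10 places an acetyl group on cytidines of ribosomal RNA and tRNA, and has been reported to do so on mRNA.

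The deposited list gives for each peak 1 fold and 1 p from the libraries together. The fold was read as log2 of IP over input and the p as -log10 p, with lowest listed values of 3.00 and 3.07. Weaker binding is therefore not seen. Both columns moved in steps, and nearly all of the steps fitted whole numbers of reads. The fit took the fold as the mean over 2 pairs of an IP and an input library, each scaled to its total. It took the p as that of the weaker pair, from Fisher's exact test, or from a chi-square test with Yates' correction where both read numbers reached 5. Exactly 1 solution for the reads of the weaker pair was found for 3894 of 4172 peaks (93.3%), and for all 20 peaks of Slc18a2 and Srgn. The scaling found from the p steps and that found from the fold steps differed by -5.81e-09 on the log2 scale. The 2 were not independent, since the read numbers of the p steps were taken from the fold steps. Whole-number differences between them were also removed. The pairs are called X and Y here, since nothing ties them to the replicate numbers of the labels. The fitted totals were 2.21 M IP reads and 4.10 M input reads in pair X, and 2.56 M IP reads and 4.18 M input reads in pair Y. An input of 1 read may also stand for no read, if the authors put a floor there. Read numbers of the pair with the weaker p are fixed by the fit, and those of the other pair are the smallest that fit its fold.

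Slc18a2 was bound in 3 separate stretches of its mRNA, 2 of exon class and 1 in the 3' UTR, with 6905 nt or more between them on the genome. The classes are the authors', and coding bases are not told apart within the exon class. Its peaks lay on the plus strand of chromosome 19 (GRCm39) between 59251314 and 59284398, a genomic span of 33085 nt that includes introns. The 9 peaks of the 3' UTR covered 641 nt and had a median log2 fold of 6.56 (range 3.30 to 6.69). The 5 peaks of exon class covered 328 nt and had a median of 5.73 (range 4.98 to 6.42). No peak was listed in the 5' UTR. For comparison, the median log2 fold was 4.64 over all 3' UTR peaks of the list and 4.55 over all exon peaks, and 12 of the 14 Slc18a2 peaks lay above the median of the whole list, 4.60. The fold compares IP with input, so the abundance of the mRNA itself was not measured. In such bulk libraries, fewer cells with an mRNA and less of it per cell cannot be told apart.

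**Figure D1:**
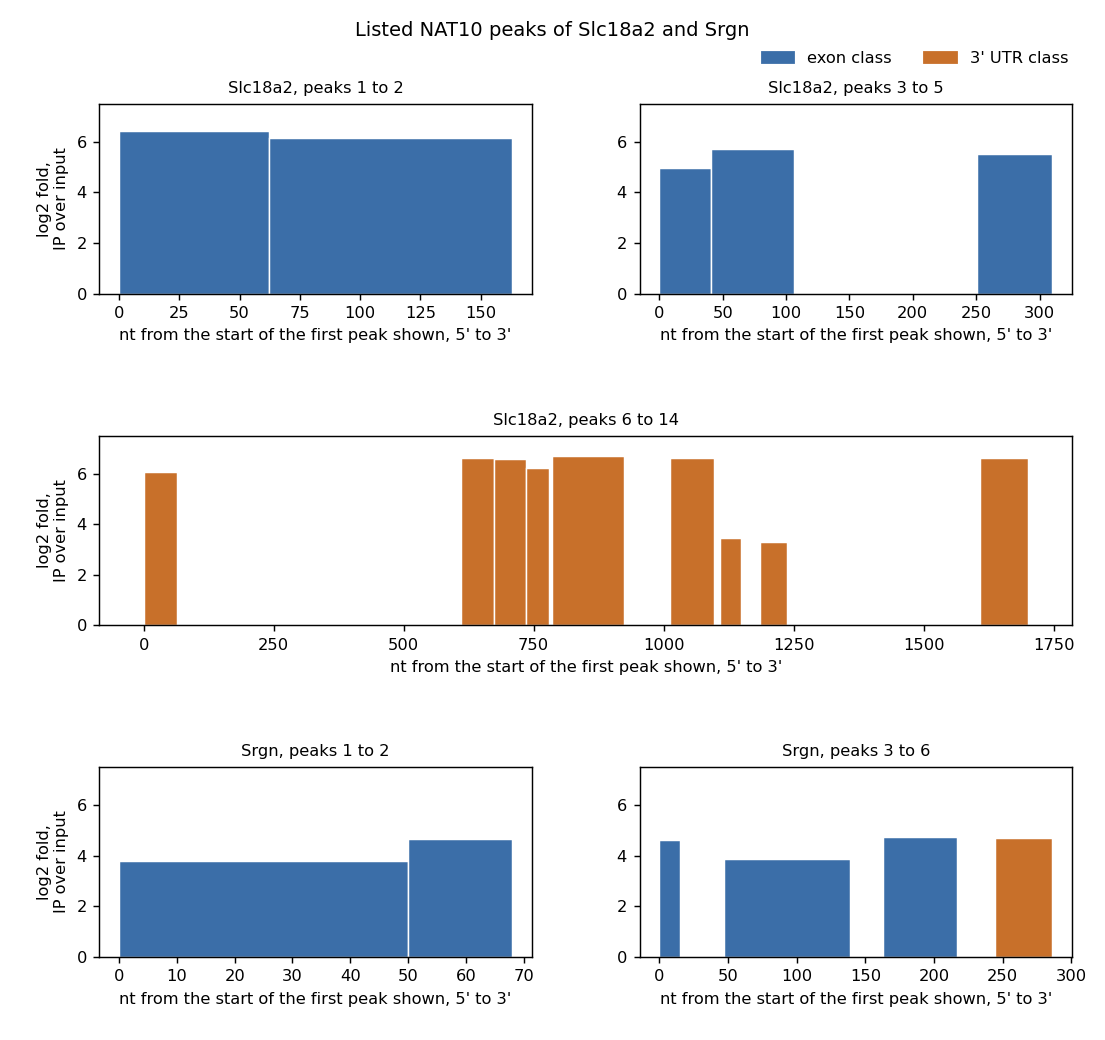
Listed peaks of Slc18a2 (upper and middle rows) and Srgn (lower row), drawn to scale in nt along the transcript direction within each window, with bar height as the authors' log2 fold of IP over input. Slc18a2 peaks of the 3' UTR stand at 6.05 to 6.69 except for peaks 12 and 13 at 3.44 and 3.30, and all Srgn peaks stand between 3.81 and 4.75.

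The most 5' stretch of Slc18a2 held the single peaks with the most immunoprecipitated reads of the gene. Peak 1, at chr19:59251314-59251375, had 90 IP reads in pair X and 107 in pair Y, against 2 input reads in each pair. Peak 2 touched it, at chr19:59251376-59251476, and had 79 and 85 IP reads against 2 input reads in each pair. Their log2 folds were 6.42 and 6.16, with -log10 p of 37.8 and 32.5, the highest of the gene. Per length peak 1 was also the densest of the gene, with 145 and 173 IP reads per 100 nt in pairs X and Y. Both pairs gave nearly the same fold at peak 1, 6.38 in X and 6.45 in Y. Reads that overlap touching peaks may count in each of them, so read numbers were not added up.

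The next stretch, also of exon class, lay 24007 nt further along the gene and had lower folds. Peak 3, at chr19:59275484-59275524, had 22 IP reads in X and 30 in Y, against 1 and 2 input reads, and a log2 fold of 4.98. Peak 4, at chr19:59275525-59275589, had 37 and 50 IP reads against 1 and 2 input reads, and a fold of 5.73. Peak 5, at chr19:59275735-59275793, had 34 and 40 IP reads against 2 and 1 input reads, and a fold of 5.50. The pairs disagreed most in this stretch: their log2 folds differed by 0.74, 0.75 and 1.05, with pair X higher at peaks 3 and 4 and pair Y higher at peak 5. In each case the IP reads were higher in Y, and the pair with 2 input reads had the lower fold. A step between 1 and 2 input reads in 1 pair moves the listed fold by 0.5 on the log2 scale.

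The 3' UTR held a run of strong peaks within 1700 nt. It opened with peak 6, at chr19:59282699-59282763, with 36 IP reads in X and 40 in Y against 1 input read in each. Peaks 7, 8 and 9 touched one another over 168 nt, at chr19:59283310-59283477, with 53, 51 and 38 IP reads in X and 59, 58 and 48 in Y. Peak 10, the strongest of the gene by fold, followed after 6 nt at chr19:59283484-59283622. It had 51 and 69 IP reads against 1 input read in each pair, a log2 fold of 6.69, which is 103-fold, and a width of 139 nt. Per length it was the thinnest of the gene, with 36.7 and 49.6 IP reads per 100 nt. Peak 11, at chr19:59283712-59283795, had 51 and 62 IP reads, and peak 14, at chr19:59284307-59284398, had 53 and 61. Every one of these 7 peaks had 1 input read in each pair, so their order by fold is the order of their IP reads alone. Peaks 8, 10 and 11 shared a -log10 p of 21.7, and each had 51 IP reads in X.

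Peaks 12 and 13, inside the same 3' UTR stretch, were the exception. Peak 12, at chr19:59283807-59283847, had 43 IP reads in X and 38 in Y, against 7 and 6 input reads. Peak 13, at chr19:59283884-59283935, had 31 IP reads in each pair, against 5 and 6 input reads. Their log2 folds were 3.44 and 3.30, close to the lower bound of the list, where they rank at 3983 and 4060 of 4172 peaks from the strongest. Their IP reads per 100 nt, 105 and 92.7 for peak 12 and 59.6 in both pairs for peak 13, were within the range of the other 3' UTR peaks in pair Y, and in pair X peak 12 was the densest of the 3' UTR. What set them apart was the input, 5 to 7 reads in place of 1. Peak 12 began 11 nt after the end of peak 11, whose fold was 6.61.

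**Figure D2:**
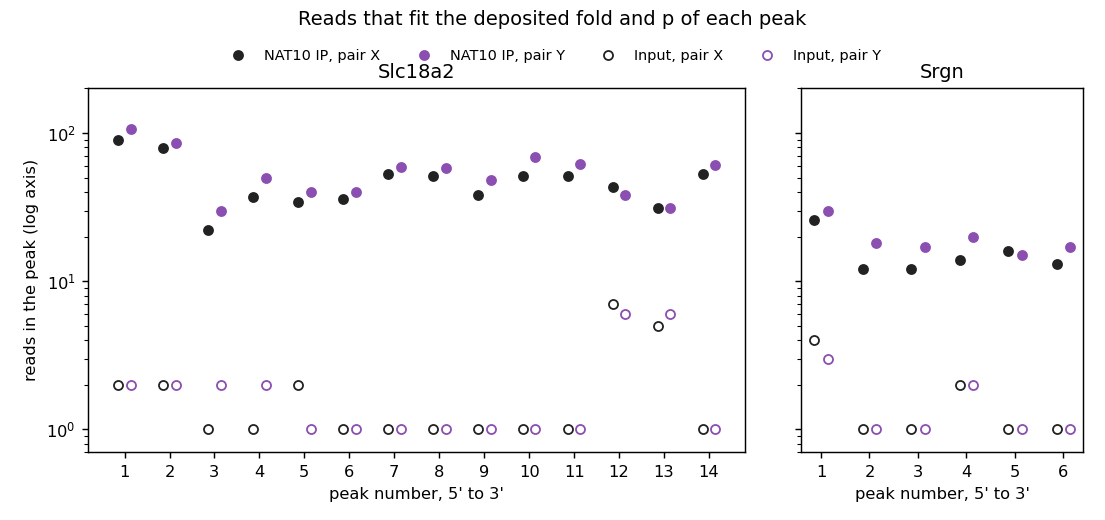
Reads per peak that fit the deposited fold and p, on a log axis, for the NAT10 IP (filled) and the input (open) of pairs X (black) and Y (purple). Slc18a2 IP reads run from 22 to 107 and Srgn IP reads from 12 to 30, while input reads are 1 or 2 except at Slc18a2 peaks 12 and 13 (5 to 7) and Srgn peak 1 (3 and 4).

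Srgn had a lower median log2 fold than Slc18a2, 4.66 against 6.19 (not tested), and mostly peaks of exon class. Its 6 peaks lay on the minus strand of chromosome 10 between 62330594 and 62333626, a span of 3033 nt, and covered 271 nt. Of these, 5 were of exon class, with a median log2 fold of 4.64 (range 3.81 to 4.75), and 1 lay in the 3' UTR with a fold of 4.69. No peak was listed in the 5' UTR. IP reads ran from 12 to 26 in pair X and from 15 to 30 in pair Y, against 22 to 90 in X and 30 to 107 in Y for Slc18a2. The highest Srgn fold, 4.75, lay below all but peaks 12 and 13 of Slc18a2. Per length the genes overlapped only in part. Slc18a2 had 36.7 to 173 IP reads per 100 nt, and Srgn peak 1 had 52 in X and 60 in Y. Srgn peaks 2 and 3 had 66.7 to 113, but at widths of 18 and 15 nt each read weighs more per 100 nt. Srgn peaks 4 and 5 lay below the Slc18a2 range, with 15.2 and 29.6 in X and 21.7 and 27.8 in Y. Srgn peak 6 had 30.95 in X and 40.48 in Y, below every Slc18a2 peak of the same pair. The -log10 p of Srgn peaks ran from 4.53 to 8.13, and those of Slc18a2 from 7.59 to 37.8.

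The upstream stretch of Srgn held a pair of touching peaks. Peak 1, at chr10:62333577-62333626, had 26 IP reads in X and 30 in Y, against 4 and 3 input reads. It had the most IP reads and the highest -log10 p of the gene, 8.13, but the lowest log2 fold, 3.81. Peak 2, at chr10:62333559-62333576, was 18 nt wide, with 12 and 18 IP reads against 1 input read in each pair, and a fold of 4.68. Order by fold and order by IP reads were thus opposite at these neighbours, and the input differed between them. With 3 or 4 input reads the interval of peak 1 was the narrowest of the gene, 2.07 to 5.57 in X and 2.34 to 6.38 in Y. These are exact 95% intervals for counting error of the log2 fold, at the fitted reads.

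The downstream stretch of Srgn, 2679 nt further along, held 4 peaks within 286 nt and ran from exon class into the 3' UTR. Peak 3, at chr10:62330865-62330879, was the narrowest at 15 nt, with 12 and 17 IP reads against 1 input read in each pair and a log2 fold of 4.64. Peak 4, at chr10:62330741-62330832, had 14 and 20 IP reads against 2 input reads in each pair and a fold of 3.86. Peak 5, at chr10:62330663-62330716, had 16 and 15 IP reads against 1 input read in each pair and the highest fold of the gene, 4.75. It was also the only Srgn peak at which pair X gave the higher fold, 4.89 against 4.61 in Y. Peak 6, the 3' UTR peak at chr10:62330594-62330635, had 13 and 17 IP reads against 1 input read in each pair. It lay 27 nt past peak 5, where the class changed from exon to 3' UTR, and had a fold of 4.69 against 4.75. With 1 input read in each pair these folds cannot show whether strength changed there.

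The pairs of libraries could be compared at every peak, since each gives a fold of its own. At Slc18a2 the absolute difference between X and Y had a median of 0.12 on the log2 scale and ranged from 0.0017 to 1.05, with X higher at 8 peaks and Y at 6. In its 3' UTR the median difference was 0.095 and the largest 0.45, at peak 13. At 7 of those 9 peaks the input was 1 read in both pairs, so only the IP reads and the library totals could set the pairs apart. At Srgn the median difference was 0.32, from 0.20 to 0.43, with Y higher at 5 of 6 peaks. Over all peaks with 1 solution the median difference was 0.19. The input was 1 read in both pairs at 7 of 14 Slc18a2 peaks and at 4 of 6 Srgn peaks, against 71.8% of all peaks with 1 solution. Counting error was much larger than these differences. For the strongest Slc18a2 peak the exact 95% interval of the log2 fold ran from 4.02 to 11.9 in X and from 4.29 to 12.1 in Y. For the strongest Srgn peak it ran from 2.21 to 10.3 in X and from 1.91 to 10.0 in Y. At these reads the intervals of both genes overlap widely. In the pair with the stronger p the reads are the smallest that fit, and larger ones would give narrower intervals. An input of 1 was taken as a real read. At Slc18a2 peaks 12 and 13 the upper ends were 4.91 and 5.25 in X and 4.90 and 4.63 in Y, while the lower end of peak 14 was 4.08 in X and 4.10 in Y. No interval of the 20 peaks reached 0, but peaks enter the list only when they are enriched.

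**Figure D3:**
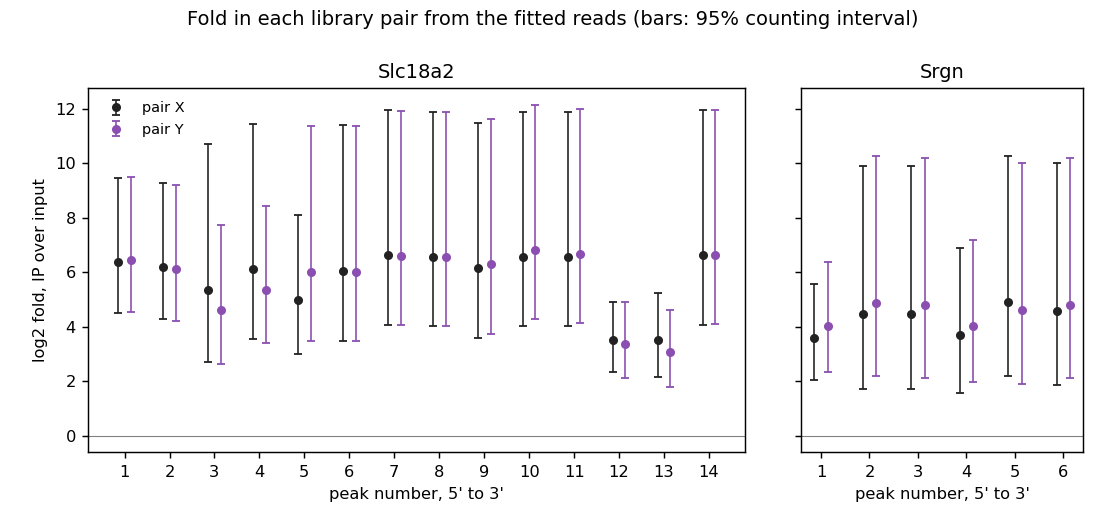
Log2 fold of IP over input in pair X (black) and pair Y (purple) for each peak in transcript order, with exact 95% intervals for counting error at the fitted reads. The pairs lie within 0.45 of each other in the 3' UTR of Slc18a2 and at Srgn, and differ by up to 1.05 at Slc18a2 peaks 3 to 5.

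Among all genes of the list Slc18a2 stood near the top, and Srgn stood near the middle by strongest fold. Slc18a2 had 14 peaks against a median of 2 per gene, and 16 of 1629 gene identifiers had more. Its peaks covered 969 nt in all, against a median of 175 nt, and 11 genes had a larger total. By the strongest fold 107 genes stood above it, and by the highest -log10 p 74 genes. The strongest fold of Srgn, 4.75, was close to the median of 4.69 over genes and was shared by 16 genes, Srgn included. By number of peaks Srgn was higher placed, with 107 genes above its 6. By total length 420 genes stood above Srgn, and by the highest -log10 p 520 genes. Of the 46 genes with 6 peaks only 2 had a weaker strongest peak than Srgn, and of the 4 genes with 14 peaks 2 had a weaker one than Slc18a2. Genes with more peaks have more chances of a strong one, so these ranks are not independent of the number of peaks.

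**Figure D4:**
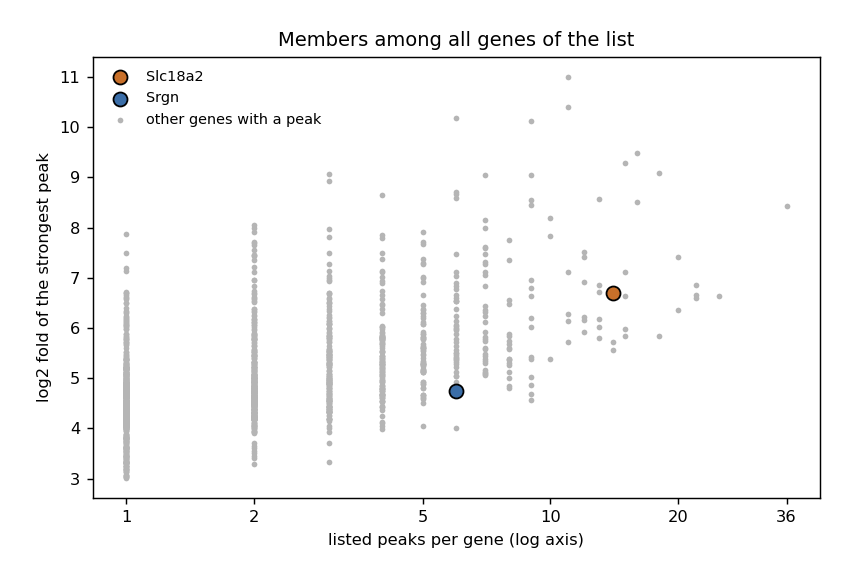
Each point is 1 gene identifier, with its number of listed peaks on a log axis and the log2 fold of its strongest peak. Slc18a2 (orange) lies at 14 peaks and 6.69, and Srgn (blue) at 6 peaks and 4.75, at the lower edge of the genes with 6 peaks.

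Within Slc18a2 the 3' UTR peaks had the higher median fold, although peaks 12 and 13 lay below every exon peak and peaks 1 and 2 of exon class had the most IP reads. The median log2 fold of its 3' UTR peaks exceeded that of its exon peaks by 0.84. This difference was larger than in 216 of the 267 genes with peaks of both classes, whose median was 0.11. In Srgn the difference was 0.06, on 1 peak of the 3' UTR. At Slc18a2 the input was 1 read in both pairs at 7 of 9 3' UTR peaks and at 0 of 5 exon peaks. A step between 1 and 2 input reads in 1 pair moves the fold by 0.5. The difference of 0.84 thus rests on few input reads. No peak of another gene on either strand overlapped a peak of Slc18a2 or Srgn.

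Among the genes most like Slc18a2 in pattern were Cbx5, which encodes a heterochromatin protein, and the hnRNP gene Hnrnpa2b1. Likeness was the distance over 6 measures (number of peaks, shares of 3' UTR and exon class, strongest fold, highest p value and total length), each scaled to its spread over genes. The distances were 1.06 and 1.13, against a median of 5.26 from Slc18a2 to all genes. Cbx5 had 11 peaks, 10 of them in the 3' UTR, with a strongest log2 fold of 7.11, and Hnrnpa2b1 had 9 peaks, 4 of them in the 3' UTR, with 6.79. Among the genes most like Srgn were the mitochondrial chaperone gene Hspa9 and the phosphatase gene Ppp1ca. Their distances were 0.42 and 0.71, against a median of 3.26, and each had 5 peaks, 4 of exon class and 1 in the 3' UTR, with strongest folds of 4.50 and 4.66. Next to Slc18a2 in the order of strongest fold stood Ing1 (6.69) above and Fli1 (6.67) below, 2 regulators of transcription. Srgn stood between Sypl and Hsf2, which had the same fold of 4.75, so these were ordered by gene identifier and not by fold.

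Few other genes of mast cell granule contents had a peak, 2 of 18. Of 20 granule content genes 4 were listed (20%, exact 95% interval 5.73 to 43.7), where 7.33% of all 21900 protein-coding genes were. Besides Slc18a2 and Srgn these were the lysosomal protease gene Ctsd (log2 fold 4.05) and Cd63 (3.06), a membrane protein of granules, with 1 peak each. Both folds lay below the median of the whole list, 4.60. Without the 2 members, whose peaks were known when the list was drawn up, 2 of 18 remained, a count not tested against the 7.33%. The histamine-forming enzyme gene Hdc, the protease genes Cpa3, Cma1 and Tpsb2 and the other members of that list had no peak. Of 14 receptors and regulators of mast cells 2 were listed, the transcription factor gene Gata2 (5.04) and the cytokine receptor subunit gene Csf2rb (4.995), while Kit and the IgE receptor genes Fcer1a, Ms4a2 and Fcer1g were not.

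Slc18a2 was the 1 gene of 17 for monoamine synthesis, transport and breakdown with a peak (5.88%, 0.149 to 28.7), an interval that holds the 7.33% of all genes. None of the other 3 members of the SLC18 family had a peak. Of 25 genes for the vacuolar proton pump 3 were listed, Atp6v1a (4.46), Atp6v0c (4.36) and Atp6v1g1 (4.34), with 1 peak each. All 3 had a lower strongest fold than Srgn. The lack of a peak does not mean that NAT10 left the RNA free, since an mRNA present in few copies yields no peak either.

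Srgn was the 1 gene of 27 proteoglycan core proteins with a peak (3.70%, 0.0937 to 19.0). Of 41 genes for the synthesis of the sugar chains 2 were listed, the sulfate transporter gene Slc26a2 (5.83, 4 peaks) and Csgalnact2 (5.46, 2 peaks), which starts chondroitin chains. Genes of granule traffic and exocytosis had 6 of 31 listed (19.4%, 7.45 to 37.5). The SNARE genes Snap23 (7.02, 4 peaks) and Stx6 (6.33, 3 peaks) led, followed by Stxbp2 (4.65) and Vamp2 (4.32). Snap23 was thus the only gene of these lists with a strongest peak above that of Slc18a2. Of 17 granule proteins of neutrophils and eosinophils 1 was listed, the protease gene Prtn3 (4.19). The interval of each of these lists but granule traffic included 7.33%, and that of granule traffic included the 8.53% found without receptor and predicted genes. With only peaks above the median fold, granule traffic had 3 of 31 genes listed and all protein-coding genes 3.95%. No list was tested.

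**Figure D5:**
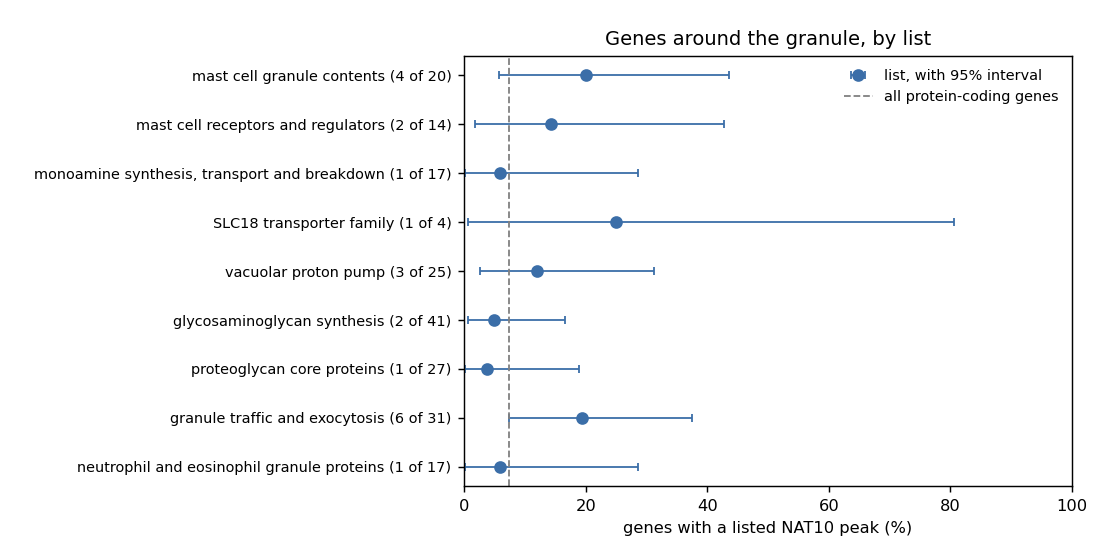
Share of genes with a listed peak for each list, with exact 95% intervals for counting error, and the share of all protein-coding genes as a dashed line at 7.33%. Granule contents (4 of 20, Slc18a2 and Srgn among them) and granule traffic (6 of 31) are drawn at 20% and 19.4%, and every interval but that of granule traffic, whose lower end is 7.45%, crosses the line.

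The labelled cell type could be checked only through bound RNA. Peaks were listed for 3 of 12 mast cell markers (Slc18a2, Gata2 and Srgn), 2 of 13 myeloid markers (Csf2rb and Ptprc), 1 of 8 erythroid and megakaryocyte markers (Itga2b, 4.25) and 0 of 15 lymphoid markers, against 7.33% of all genes. Slc18a2 and Srgn were chosen with their peaks known, and without them 1 of 10 mast cell markers was listed. The labels call the cells lymphoblastocytes of bone marrow. Since a peak shows NAT10 on an RNA and not how much of the RNA a cell holds, these counts do not give a cell type.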

How the data were processed

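The authors deposited 1 list of peaks for NAT10 IP against input, with no column per library, 2 libraries a group per the labels. Its log2 fold and its -log10 p, both deposited by the authors and named in part by the file headers, were kept as given, and their scale was read from the values. Coordinates are of GRCm39, per the submitters' processing notes. Aligner, peak caller and cut-offs were not given in the sources used here. Positions count from 1. The read fit tried up to 1500 IP and 60 input reads. Tolerances were 5e-06 (Fisher) and 3e-05 (chi-square) on -log10 p, and 0.001 read. On data simulated under the same rules it was checked for recovery of the folds per pair. Such data cannot show whether the authors used those rules. Gene lists were matched by symbol or unique synonym to the RefSeq table of GRCm38.p6, used for names only. Members and lists were chosen with earlier results of these data known. Named genes were both members, the 3 nearest to each in pattern, their neighbours in strongest fold and up to 4 per list. Of the nearest genes, 1 per member is not reported here. Genes named as lacking a peak were picked afterwards. The planned test of IP against input was not run, since the list has no counts per library. Python 3.11.15 and scipy 1.17.1 were used. No sequence is printed, since no genome of the list's build was used here.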

Additional observations from a re-analysis of the deposited data

How the results depend on the processing

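The number of Slc18a2 peaks was 14 as listed and 7 with peaks within 50 nt joined, and that of Srgn 6 and 2. With touching peaks joined or stronger peaks only (log2 fold above 4.60) both counts changed less (10 and 12 for Slc18a2, 5 and 4 for Srgn). By strongest fold Slc18a2 stood at percentile 93.4 of genes. It stood at 95.4 by p, 94.97 by the median peak, 95.1 by the lower library pair and 50 among genes with 14 peaks. Srgn stood at 52.7, and at 68.0 by p, 64.0 by the median peak and 4.35 among genes with 6 peaks. With the lower library pair Srgn stood at 53.4. With pair X alone Slc18a2 stood at 94.4 and Srgn at 57.7, and with pair Y alone at 95.3 and 55.6. These alternatives by pair were chosen after seeing the data and cover the 1597 genes with every peak fitted. The share of protein-coding genes with a peak was 7.33%, against 3.95% with stronger peaks only and 8.53% without receptor and predicted genes. With stronger peaks only, 2 of the 4 granule content genes were left. The cause of these shifts was not tested. No paired analysis was possible because no test was run and the list has no column per library. The fitted folds of pairs X and Y could be set side by side, but cannot be tied to the labels' replicate numbers. Most folds rest on 1 or 2 input reads, which limits any order among them.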
